A study of Mus musculus with 12 samples.

Results

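The genes described here are the panel's matrix genes and the genes of the TGF-beta, BMP and growth factor pathways. They were measured in mouse lung tissue by counting barcoded probes on a NanoString nCounter innate immune panel. A probe belongs to this set when its symbol starts with Col and a digit, Lam with a letter and a digit, Thbs, Serpin, Tgfb, Bmp, Fgf, Pdgf, Vegf or Smad, with Bmp6, Vegfa and Smad7 left out. The rule took 34 of the 734 endogenous genes, and none of them is a thrombospondin gene. They are 12 structural matrix genes, 15 signalling genes, 6 serpins and Lamp3. Lamp3 meets the letters of the rule but encodes a lysosomal membrane protein and no laminin, so it is described apart.

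The mice fell into 3 groups. KO_DRA (n = 5) were Chil4-deficient mice given DRA allergens into the nose, B6_DRA (n = 5) were their wild type littermates given the same allergens, and B6_PBS (n = 2) were wild type mice given PBS. Dosing was 2 times per week for 8 weeks, and RNA came from the post-caudal lobe. The labels do not expand DRA, they call the deficient mice both KD and KO, and the sources used here give neither the way Chil4 was altered nor the age and sex of the mice. No Chil4-deficient mice given PBS are among the 12 samples. A genotype difference present without allergens therefore cannot be told apart from a changed response to allergens in KO_DRA against B6_DRA.

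Extracellular matrix in the lung falls into fibrillar collagens, which give tissue its tensile strength, and basement membranes built of type IV collagen and laminins, on which epithelium and endothelium rest. TGF-beta and BMP ligands bind serine/threonine kinase receptors that phosphorylate SMAD proteins, with SMAD2 downstream of TGF-beta and SMAD1 downstream of BMPs. Fibroblast growth factors from lung mesenchyme act on the epithelium, platelet-derived growth factors act on fibroblasts and pericytes, and VEGF-C acts on lymphatic endothelium.

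Total counts per library were 320290 to 658293 in KO_DRA, 367744 to 673201 in B6_DRA, and 389757 and 392701 in B6_PBS. The probes of Chil3, Chil4 and Retnla held 4.80% to 43.6% of all counts in KO_DRA, 13.2% to 38.9% in B6_DRA, and 3.11% and 2.79% in B6_PBS. The targeted gene Chil4 did not separate the libraries by genotype label. The library labelled KO_DRA 8 had 125242 scaled counts of Chil4, the highest of all 12, and KO_DRA 9 to 12 had 6701, 5092, 27595 and 14729, against 13857 to 97912 in B6_DRA, and 4416 and 3629 in B6_PBS. KO_DRA 11 and KO_DRA 12 thus lay above B6_DRA 5, whose 13857 was the lowest of its group, and all 5 KO_DRA libraries lay above both B6_PBS libraries. Whether the probe reads the altered stretch of Chil4 is not stated in the labels, so every direction between KO_DRA and another group rests on the labels. Levels below are scaled counts, which are the authors' counts multiplied by 1 factor per library. Fold changes are from edgeR on the raw counts with TMM scaling, and a gene is called when its adjusted p lies under 0.05. Background is the mean of the negative control probes plus 2 SD. Probes differ in efficiency, so levels are compared between groups for a gene and not between genes. Of the markers listed for lung epithelium the panel holds Cdh1 alone among 10, so the tissue label could not be checked through airway or surfactant genes.

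In wild type lung given allergens, 4 of 8 tested ligand genes (Fgf7, Fgf18, Pdgfb, Vegfc), 2 of 4 receptor genes (Pdgfra, Tgfbr3), 4 of 10 structural matrix genes (Col4a1, Col4a2, Lamb2, Col12a1) and the serpin gene Serpinb9 had lower RNA than in wild type lung given PBS. Of the 29 members that passed the filter on low counts, 11 fell in B6_DRA relative to B6_PBS and none rose. An unadjusted p under 0.05 by edgeR was found for 15 members, 14 lower and 1 higher. The same held for 355 of all 665 genes tested, 162 lower and 193 higher. The share called lower was 37.9% of the members and 17.7% of all 665 genes tested. Of all genes tested, 24.1% were called higher and 41.8% in either direction. The median log2 fold change was -0.34 over the members and 0.01 over all genes tested. In RNA of lung tissue, fewer cells of a type and less RNA per cell cannot be told apart. With the authors' housekeeping factors in edgeR, which move the median of all genes to 0.10, 7 members fell and none rose, where 9.77% of all genes were lower and 24.4% higher. With library size alone, which moves it to -0.63, 18 fell and 1 rose, where 33.4% of all genes were lower and 8.57% higher. Without B6_PBS 1 or without B6_PBS 2 no member was called by edgeR in either direction, with 7 and 10 at an unadjusted p under 0.05, and no gene among the 672 tested in either fit was called, with 190 and 244 at an unadjusted p under 0.05. The calls over all genes moved with those of the members when a B6_DRA library was left out. Without B6_DRA 3, 3 members and 5.41% of all genes were lower, and without B6_DRA 4, 5 members and 8.73%. Without B6_DRA 5, 17 members and 24.2% of all genes were lower. Without B6_DRA 6, 4 members and 7.38% were lower, and without B6_DRA 7, 3 members and 6.33%. Col4a1 and Fgf7 were called lower in every fit that left out a B6_DRA library. Among these fits, Fgf18, Pdgfb, Pdgfra and Lamb2 were called lower only in the one without B6_DRA 5.

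**Figure D1:**
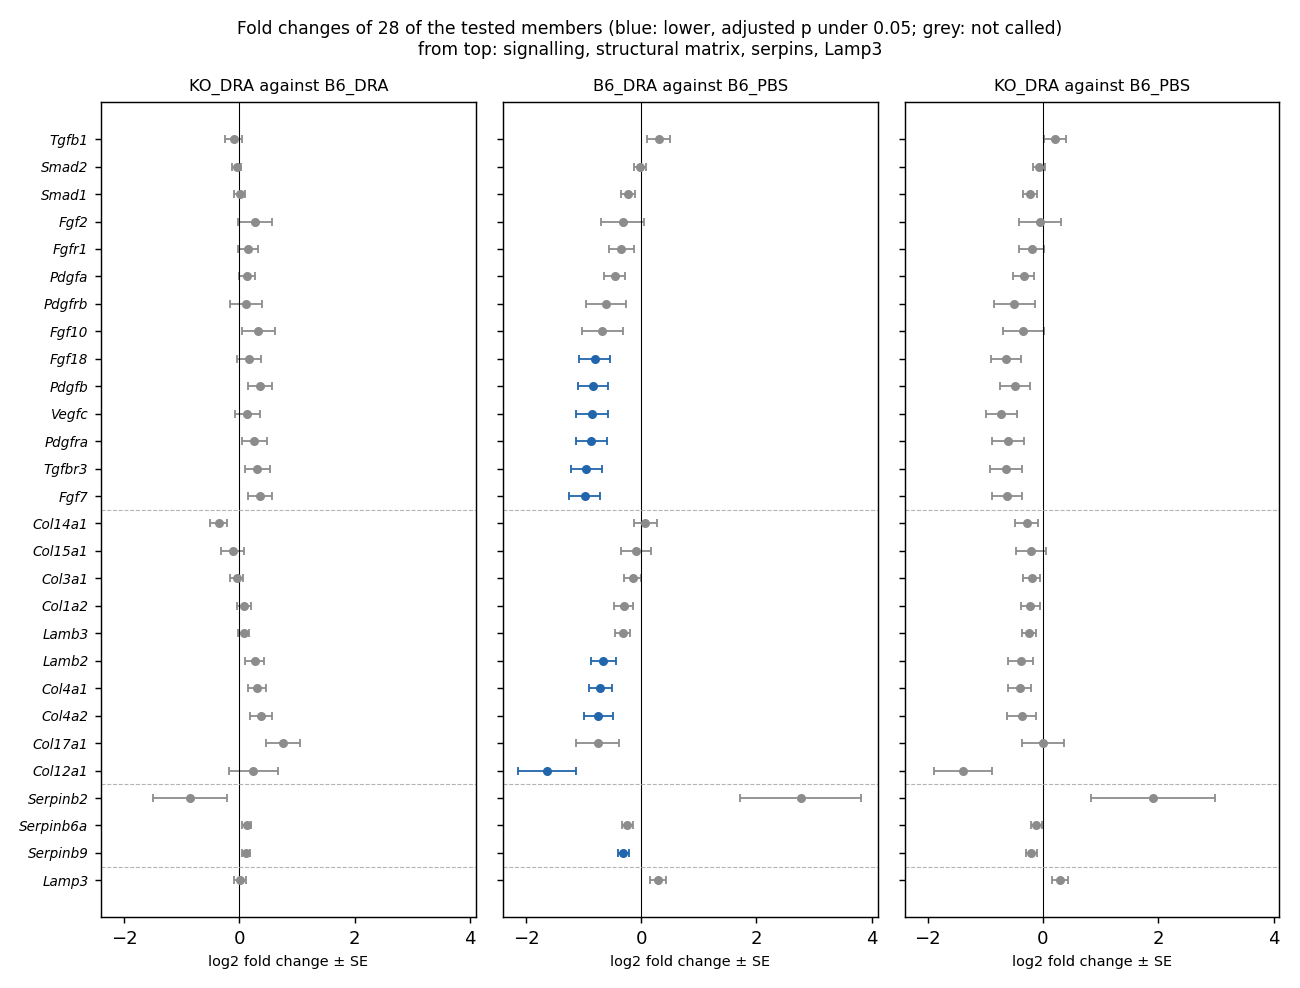
Log2 fold change with its standard error (edgeR, TMM scaling) for 28 of the 29 tested members in the 3 comparisons, with signalling genes at the top, then structural matrix genes, serpins and Lamp3. Blue points have an adjusted p under 0.05. The 11 blue points all lie left of 0 in the comparison of B6_DRA with B6_PBS, and the panels that involve KO_DRA have none.

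The ligands of the signalling group are the fibroblast growth factors Fgf2, Fgf7, Fgf10 and Fgf18, the platelet-derived growth factors Pdgfa and Pdgfb, Vegfc, Tgfb1 and Bmp8a. Of all 665 genes tested, 17.7% fell in B6_DRA relative to B6_PBS, with a median log2 fold change of 0.01. Over ligands, receptors and SMADs together, 6 of 14 tested signalling genes (42.9%) fell, with a median of -0.64. Among the ligands these were Fgf7, Fgf18, Pdgfb and Vegfc. The 100 bases before the annotated start of Fgf7, Fgf18 and Vegfc are shown because these are called ligands whose RefSeq promoter entry begins at the outermost start of the gene. They read 5′ to 3′ on the strand of the gene, from the RefSeq table of GRCm38.p6.
Fgf7, chr2:126034558-126034657, plus strand: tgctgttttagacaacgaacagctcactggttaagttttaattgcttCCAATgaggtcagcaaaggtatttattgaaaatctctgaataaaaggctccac
Fgf18, chr11:33147401-33147500, minus strand: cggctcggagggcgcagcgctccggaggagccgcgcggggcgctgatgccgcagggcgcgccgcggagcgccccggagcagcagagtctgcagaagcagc
Vegfc, chr8:54077432-54077531, plus strand: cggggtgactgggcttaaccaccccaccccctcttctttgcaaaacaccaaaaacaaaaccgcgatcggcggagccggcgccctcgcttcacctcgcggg
Capitals mark the only match in the 3 windows, a CCAAT box before Fgf7, among 3 motifs that share no position here and were searched on both strands. The TATA box was searched as TATAAA, which was found in 5.95% of windows of the same length before 27025 RefSeq promoter entries. The box of letters CCAAT was found in 19.6% of them. The GC box was searched as GGGCGG and was found in 25.2%. The windows of Fgf7 and Vegfc also lie within the bounds of other annotated genes, Fam227b and Gm33153.

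Fgf7 encodes keratinocyte growth factor, a mesenchymal signal to epithelial cells. It had 96.3, 186, 170.4, 117 and 115 scaled counts in KO_DRA 8 to 12, 102, 108, 146, 101 and 89.7 in B6_DRA 3 to 7, and 215 and 190.2 in B6_PBS 1 and 2. Every allergen-treated library of either genotype lay below both B6_PBS libraries, and KO_DRA and B6_DRA overlapped. Fgf7 fell in B6_DRA relative to B6_PBS, by 0.98 on the log2 scale (SE 0.265, adjusted p = 0.0214 by edgeR). Fgf18, a growth factor of mesenchyme in the developing lung, had 43.7, 87.2, 89.7, 98.7 and 74.9 scaled counts in KO_DRA, 63.1, 66.8, 91.5, 69.1 and 65.9 in B6_DRA, and 121 and 114 in B6_PBS. Here too every allergen-treated library lay below both B6_PBS libraries, with the library labelled KO_DRA 8 lowest of all. Fgf18 fell in B6_DRA relative to B6_PBS by 0.81 on the log2 scale (SE 0.262, adjusted p = 0.0328 by edgeR).

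Vegfc encodes the growth factor of lymphatic vessels. Its scaled counts were 89.6, 134, 170.4, 119 and 101 in KO_DRA, 106, 148, 139, 113 and 65.9 in B6_DRA, and 198 and 190.2 in B6_PBS. All 10 allergen-treated libraries lay below both B6_PBS libraries, and KO_DRA and B6_DRA overlapped. Vegfc fell in B6_DRA relative to B6_PBS by 0.86 on the log2 scale (SE 0.272, adjusted p = 0.0319 by edgeR), but not past the threshold with the authors' housekeeping factors (adjusted p = 0.0516 by edgeR). Pdgfb, which recruits pericytes to vessels, had 249.7, 426, 496, 392 and 438 scaled counts in KO_DRA, 284, 329, 458, 287 and 241 in B6_DRA, and 570.1 and 502 in B6_PBS. It was below both B6_PBS libraries in all 10, and the library labelled KO_DRA 8 had the lowest KO_DRA value. Pdgfb fell in B6_DRA relative to B6_PBS by 0.84 on the log2 scale (SE 0.264, adjusted p = 0.0313 by edgeR).

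The other ligands were not called. Pdgfa, a ligand for fibroblasts and their precursors, had 659.5, 879, 885, 798 and 856 scaled counts in KO_DRA, 709.6, 805, 963, 652 and 669 in B6_DRA, and 938 and 1023 in B6_PBS. B6_DRA 5 lay between the B6_PBS libraries and the remaining 9 allergen-treated libraries lay below both (log2 fold change of B6_DRA against B6_PBS -0.46, SE 0.179, adjusted p = 0.0557 by edgeR). Fgf10, a mesenchymal signal for lung branching, had 47.0, 80.7, 115, 65.8 and 84.5 scaled counts in KO_DRA, 40.5, 56.2, 103, 59.2 and 60.3 in B6_DRA, and 99.2 and 92.2 in B6_PBS. KO_DRA 10 and B6_DRA 5 exceeded both B6_PBS libraries, so the groups overlapped. Fgf2 spanned 15.7 to 28.7 in KO_DRA and 10.4 to 31.9 in B6_DRA, ranges that include its B6_PBS values of 22.4 and 23.1.

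Tgfb1, the ligand that drives fibroblasts to make matrix and restrains T cells, was the signalling gene with the highest estimate in B6_DRA against B6_PBS. It had 798, 417, 470.1, 633 and 477 scaled counts in KO_DRA, 662, 659.7, 475, 688 and 529 in B6_DRA, and 467 and 443 in B6_PBS. All 5 B6_DRA libraries lay above both B6_PBS libraries, B6_DRA 5 by the smallest margin, while in KO_DRA 1 library lay below them and the library labelled KO_DRA 8 was the highest of all 12. The log2 fold change of B6_DRA against B6_PBS was 0.31 (SE 0.200, adjusted p = 0.216 by edgeR), so the difference was not past the test. Bmp8a, a BMP ligand, had raw counts of 1, 2, 4, 1 and 3 in KO_DRA, 4, 1, 2, 4 and 1 in B6_DRA, and 1 and 1 in B6_PBS, below background in every library and outside the test.

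**Figure D2:**
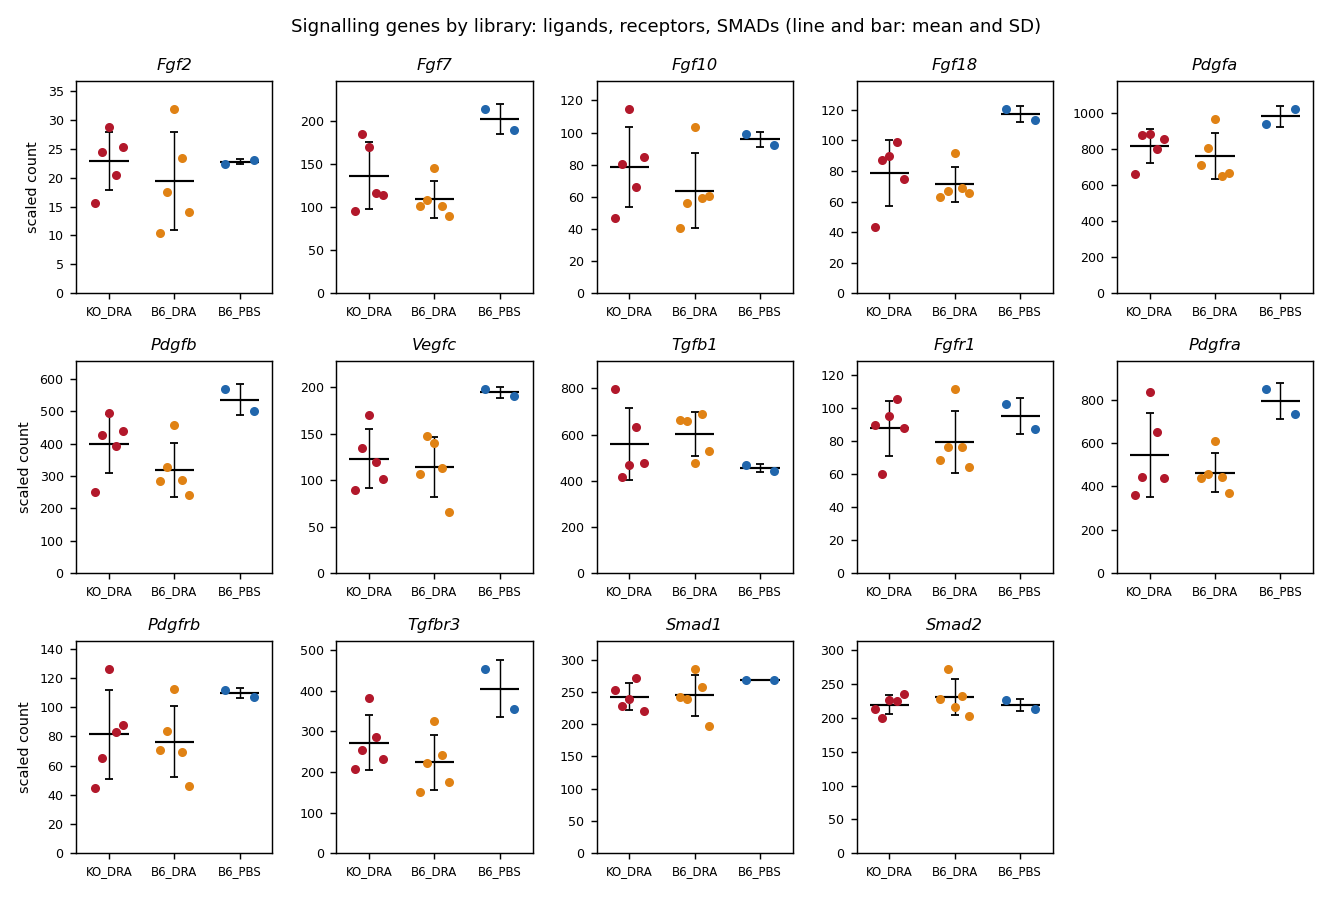
Scaled counts of the 14 tested signalling genes, a panel each with its own axis from 0, with KO_DRA, B6_DRA and B6_PBS from left to right. Points are libraries, and the line and bar give the mean and SD (n = 5, 5 and 2). For Fgf7, Fgf18, Pdgfb and Vegfc all 10 allergen-treated points lie below both B6_PBS points, while for Tgfb1 the 5 B6_DRA points lie above them.

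Of the receptors, Pdgfra and Tgfbr3 fell in B6_DRA. Pdgfra encodes PDGF receptor alpha, which marks lung fibroblasts, and had 362, 445, 834, 653 and 438 scaled counts in KO_DRA, 438, 455, 609.9, 445 and 372 in B6_DRA, and 850.4 and 733 in B6_PBS. The 5 B6_DRA libraries lay below both B6_PBS libraries, whereas KO_DRA 10 lay between them. The log2 fold change of B6_DRA against B6_PBS was -0.86 (SE 0.275, adjusted p = 0.0323 by edgeR). Tgfbr3, or betaglycan, is a coreceptor that presents TGF-beta to its signalling receptors. It had 207, 254, 381, 287 and 232 scaled counts in KO_DRA, 152, 223, 326, 242 and 175 in B6_DRA, and 454 and 356 in B6_PBS. KO_DRA 10 again lay between the B6_PBS libraries, and the other allergen-treated libraries lay below both. Tgfbr3 fell in B6_DRA relative to B6_PBS by 0.95 on the log2 scale (SE 0.273, adjusted p = 0.0262 by edgeR).

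Pdgfrb, the PDGF receptor of pericytes and smooth muscle, had 44.8, 65.2, 126, 82.9 and 88.1 scaled counts in KO_DRA, 70.7, 83.4, 113, 69.1 and 46.3 in B6_DRA, and 112 and 107 in B6_PBS. Most allergen-treated libraries lay lower, but KO_DRA 10 and B6_DRA 5 exceeded both B6_PBS libraries and the gene was not called (adjusted p = 0.167 by edgeR for B6_DRA against B6_PBS). Fgfr1, a receptor for fibroblast growth factors, ranged from 60.3 to 106 in KO_DRA and from 64.5 to 112 in B6_DRA, against 103 and 87.3 in B6_PBS. The intracellular SMADs had the smallest standard errors of the signalling genes in B6_DRA against B6_PBS. Smad1 had 221 to 272 scaled counts in KO_DRA, 198 to 286 in B6_DRA, and 269 and 268 in B6_PBS. Smad2 had 199.7 to 235 in KO_DRA, 203 to 273 in B6_DRA, and 226 and 213 in B6_PBS. For Smad2 the 95% interval of the log2 fold change of B6_DRA against B6_PBS ran from -0.26 to 0.21 by edgeR, and for Smad1 from -0.49 to 0.03.

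Of the 12 structural matrix genes, 10 were tested and 4 of the 10 (40%) fell in B6_DRA relative to B6_PBS, with none higher. Of all genes tested, 17.7% fell. The median log2 fold change was -0.49 over the 10 and 0.01 over all genes tested. The 4 are the basement membrane genes Col4a1, Col4a2 and Lamb2 and the collagen gene Col12a1. Col4a1 and Col4a2 encode the chains of the most widespread type IV collagen and are transcribed away from each other on chromosome 8. In the RefSeq promoter entries of GRCm38.p6 the plus strand start of Col4a2 lies at position 11312805 and the minus strand start of Col4a1 at 11312826. Transcripts from these 2 starts overlap in their first 22 bases on opposite strands. The Col4a1 entry does not begin at the outermost annotated start of that gene.

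Col4a1 had 626, 502, 799, 723 and 710.0 scaled counts in KO_DRA, 597, 498, 648, 631 and 370.2 in B6_DRA, and 924 and 759 in B6_PBS. All 5 B6_DRA libraries lay below both B6_PBS libraries, and KO_DRA 10 lay between these. The log2 fold change of B6_DRA against B6_PBS was -0.71 (SE 0.197, adjusted p = 0.0229 by edgeR). Col4a2 had 433, 395, 746, 622 and 587 scaled counts in KO_DRA, 431, 365, 539, 532 and 307 in B6_DRA, and 758 and 606 in B6_PBS. KO_DRA 10 and KO_DRA 11 lay between the B6_PBS libraries and the other 8 allergen-treated libraries below them. Col4a2 fell in B6_DRA relative to B6_PBS by 0.74 on the log2 scale (SE 0.248, adjusted p = 0.0348 by edgeR), but not past the threshold with the authors' housekeeping factors (adjusted p = 0.0663 by edgeR).

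The pair moved together from library to library. The count of Col4a2 over that of Col4a1 was 0.692 to 0.934 in KO_DRA, 0.721 to 0.842 in B6_DRA, and 0.821 and 0.798 in B6_PBS, while the scaled count of Col4a1 itself ranged from 370.2 to 924 over the 12 libraries. The count of Col1a2 over that of Col3a1 was 0.320 to 0.351 in KO_DRA, 0.266 to 0.357 in B6_DRA, and 0.346 and 0.339 in B6_PBS. A narrow span of the ratio was thus not particular to the type IV pair. A ratio within a library does not depend on the scaling, so Col4a1 was also set over Col3a1. That ratio was 0.246 to 0.332 in KO_DRA, 0.187 to 0.256 in B6_DRA, and 0.385 and 0.291 in B6_PBS. All 5 B6_DRA libraries lay below both B6_PBS libraries, with a log2 difference of -0.57 (exact two-sided permutation p = 0.0476, the smallest that 5 against 2 allows). For KO_DRA against B6_DRA the log2 difference was 0.36 (exact two-sided permutation p = 0.0238, where 0.00794 is the smallest possible). The ratios were chosen after the values were seen. Over the 15 ratio tests run, these 2 tests of Col4a1 over Col3a1 both have a Benjamini-Hochberg adjusted p of 0.357 (exact permutation).

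**Figure D3:**
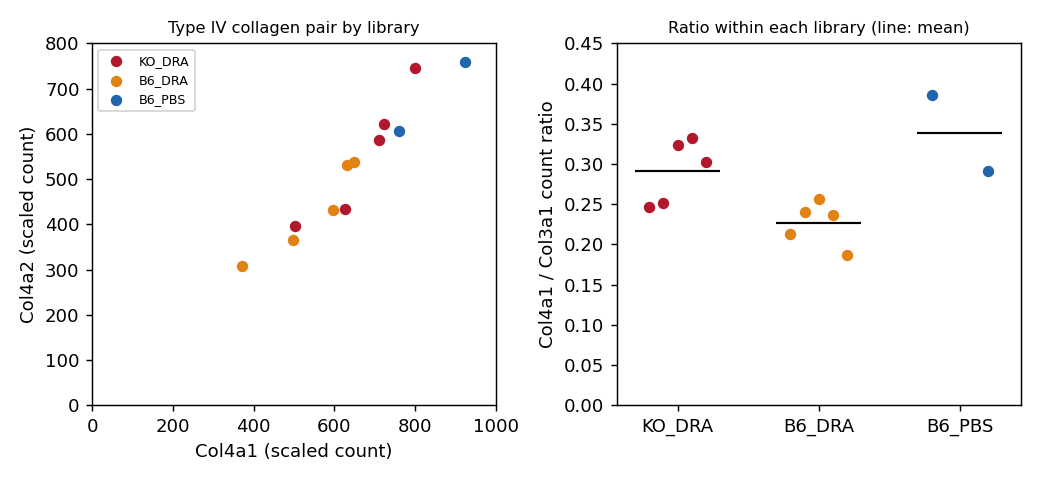
Left, scaled counts of Col4a2 against Col4a1, where each point is a library coloured by group. Right, the ratio of Col4a1 to Col3a1 counts within each library for KO_DRA, B6_DRA and B6_PBS, with lines at the means. The type IV collagen points run along a single line, and the 5 B6_DRA ratios, 0.187 to 0.256, lie below both B6_PBS ratios.

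Lamb2 encodes laminin beta 2, a chain of basement membrane laminins. It had 356, 426, 606, 507 and 473 scaled counts in KO_DRA, 391, 366, 533, 393 and 308 in B6_DRA, and 621 and 558 in B6_PBS. B6_DRA lay below both B6_PBS libraries throughout, and the log2 fold change was -0.66 (SE 0.211, adjusted p = 0.0326 by edgeR, or 0.0521 with the authors' housekeeping factors). Lamb3 encodes a chain of the laminin under epithelium. Its scaled counts were 353, 362, 404, 431 and 429.9 in KO_DRA, 393, 372, 419, 408 and 309.9 in B6_DRA, and 463 and 428 in B6_PBS, and the log2 fold change of B6_DRA against B6_PBS was -0.32 (SE 0.123, adjusted p = 0.0537 by edgeR). B6_DRA and B6_PBS did not overlap, but the difference was not past the test.

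Col12a1 encodes a collagen that associates with fibrils and had the lowest estimate of all 665 genes in B6_DRA against B6_PBS. Its scaled counts were 15.7, 66.8, 94.2, 55.6 and 64.0 in KO_DRA, 38.6, 65.9, 90.5, 35.8 and 25.2 in B6_DRA, and 165 and 136 in B6_PBS. Every allergen-treated library lay below both B6_PBS libraries, with the library labelled KO_DRA 8 lowest of all. Col12a1 fell by 1.63 on the log2 scale (SE 0.506, adjusted p = 0.0306 by edgeR), a level of 51.2 ± 26.6 in B6_DRA against 150.3 ± 20.4 in B6_PBS (SD, n = 5 and 2). Col17a1, a transmembrane collagen that anchors epithelial cells to the basement membrane, had 13.4, 26.9, 41.3, 25.0 and 25.4 scaled counts in KO_DRA, 12.3, 18.4, 22.4, 12.3 and 14.0 in B6_DRA, and 28.5 and 22.2 in B6_PBS. Apart from the library labelled KO_DRA 8, the KO_DRA libraries lay above all 5 of B6_DRA, and the gene was not called in B6_DRA against B6_PBS (adjusted p = 0.111 by edgeR). Raw counts of Col17a1 in B6_DRA 3 to 7 were 13, 21, 21, 10 and 10. Background in raw counts was 10.2, 11.7, 7.14, 8.40 and 6.98 in these libraries, so the gene lay close to it.

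The fibrillar collagen genes Col3a1 and Col1a2 were not called. Col3a1, of type III collagen, had 2545, 1992, 2474, 2178 and 2344 scaled counts in KO_DRA, 2811, 2075, 2528, 2674 and 1979.9 in B6_DRA, and 2397 and 2605 in B6_PBS. The 3 groups overlapped, and the 95% interval of the log2 fold change of B6_DRA against B6_PBS was -0.47 to 0.18 by edgeR. Col1a2, of type I collagen, ranged from 682 to 868 in KO_DRA and from 527 to 904 in B6_DRA, against 829.7 and 883 in B6_PBS (interval -0.66 to 0.06 by edgeR). Without B6_DRA 5 Col1a2 was called lower in B6_DRA, with a log2 fold change of -0.39 (adjusted p = 0.0457 by edgeR). Col14a1, which like Col12a1 associates with fibrils, had 95.2, 87.2, 96.0, 99.9 and 101 scaled counts in KO_DRA, 176, 109.8, 122, 107 and 104 in B6_DRA, and 106 and 115 in B6_PBS. All 5 KO_DRA libraries lay below the lowest of the other 7, and B6_DRA 3 stood above the rest. Col15a1, a collagen of basement membrane zones, ranged from 44.0 to 69.4 in KO_DRA and from 47.7 to 81.0 in B6_DRA, against 44.0 and 69.2 in B6_PBS. Col10a1 and Col11a1, collagens of cartilage, were below background in every library and were not tested. The raw counts of Col10a1 were 2, 4, 2, 1 and 4 in KO_DRA, 2, 2, 5, 3 and 2 in B6_DRA, and 1 and 3 in B6_PBS.

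**Figure D4:**
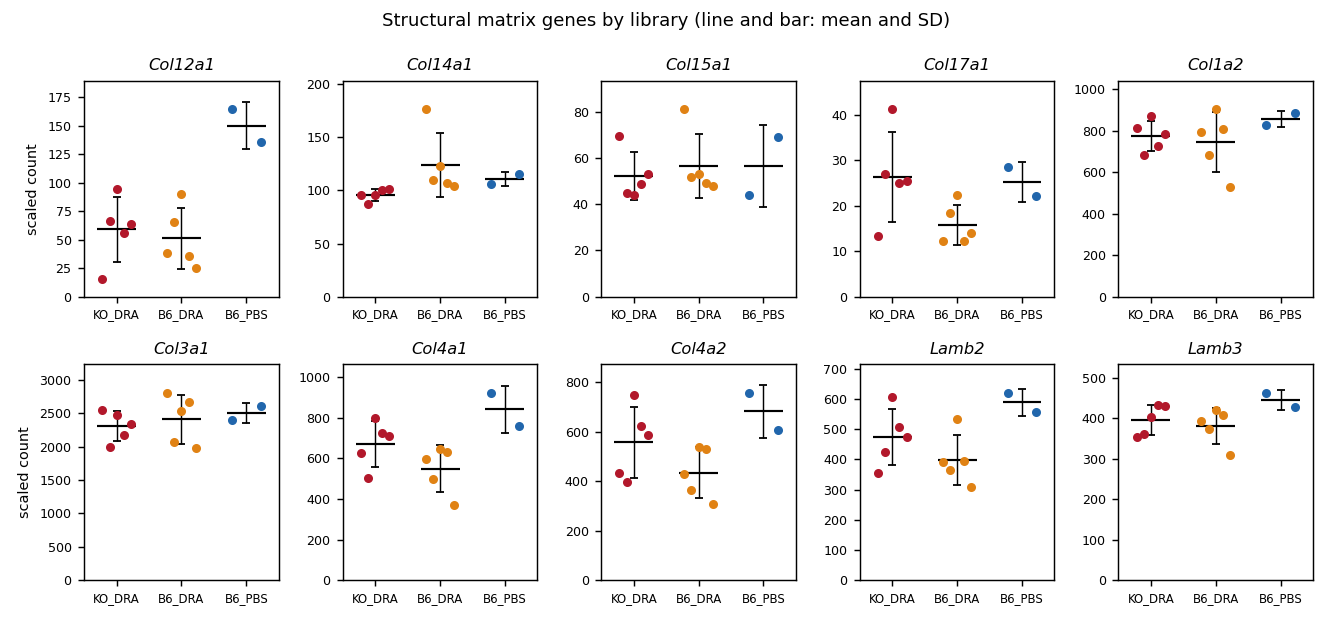
Scaled counts of the 10 tested structural matrix genes, a panel each with its own axis from 0, with KO_DRA, B6_DRA and B6_PBS from left to right. Points are libraries, and the line and bar give the mean and SD (n = 5, 5 and 2). For Col12a1 all 10 allergen-treated points lie below both B6_PBS points, while for Col3a1 the 3 groups overlap.

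Serpins are mostly inhibitors of serine proteases, and 4 of the 6 on the panel were tested. Serpinb9, which inhibits granzyme B and shields cells from it, had 392, 379, 431, 447 and 366 scaled counts in KO_DRA, 369, 378, 357, 398 and 383 in B6_DRA, and 420.0 and 457 in B6_PBS. The 5 B6_DRA libraries lay below both B6_PBS libraries by a small margin, and Serpinb9 fell by 0.31 on the log2 scale (SE 0.0974, adjusted p = 0.0308 by edgeR). The call was lost with the authors' housekeeping factors (log2 fold change -0.22, adjusted p = 0.109 by edgeR). Serpinb6a, an intracellular relative, had 686, 693, 670.1, 723 and 609 scaled counts in KO_DRA, 554, 702, 608, 650.0 and 624 in B6_DRA, and 678 and 709 in B6_PBS, and was not called. Both belong to families of close mouse paralogs, and the sources used here do not say whether the probes tell these apart.

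Serpinb2, or PAI-2, inhibits urokinase and is made by activated macrophages. It had the highest estimate of the members in B6_DRA against B6_PBS, and its fold change is given although it was chosen after its values were seen. It had 60.5, 7.34, 7.18, 19.3 and 20.5 scaled counts in KO_DRA, 63.1, 11.4, 12.8, 75.2 and 42.1 in B6_DRA, and 4.31 and 6.59 in B6_PBS. All 10 allergen-treated libraries lay above both B6_PBS libraries, and the library labelled KO_DRA 8 stood with the high B6_DRA libraries. Background in scaled counts was 5.53 in B6_PBS 1 and 5.41 in B6_PBS 2, so 1 of the B6_PBS values lay under it. The log2 fold change of B6_DRA against B6_PBS was 2.77 (SE 1.05, adjusted p = 0.0532 by edgeR), just outside the threshold, and DESeq2 called it (adjusted p = 0.00875). Serpine3 was below background in every library and Serpinb7 was above it in 1, with at most 7 raw counts, so neither was tested. The raw counts of Serpine3 were 1, 1, 1, 3 and 3 in KO_DRA, 5, 1, 2, 3 and 2 in B6_DRA, and 5 and 5 in B6_PBS.

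Lamp3 marks alveolar type II cells and mature dendritic cells. It had 3677, 3453, 3426, 4494 and 4025 scaled counts in KO_DRA, 3429, 4271, 3475, 3952 and 4017 in B6_DRA, and 3006 and 2874 in B6_PBS. All 10 allergen-treated libraries lay above both B6_PBS libraries, but the gene was not called in B6_DRA (log2 fold change 0.29, SE 0.137, adjusted p = 0.102 by edgeR) or in KO_DRA (0.30, SE 0.137, adjusted p = 0.174) against B6_PBS.

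**Figure D5:**
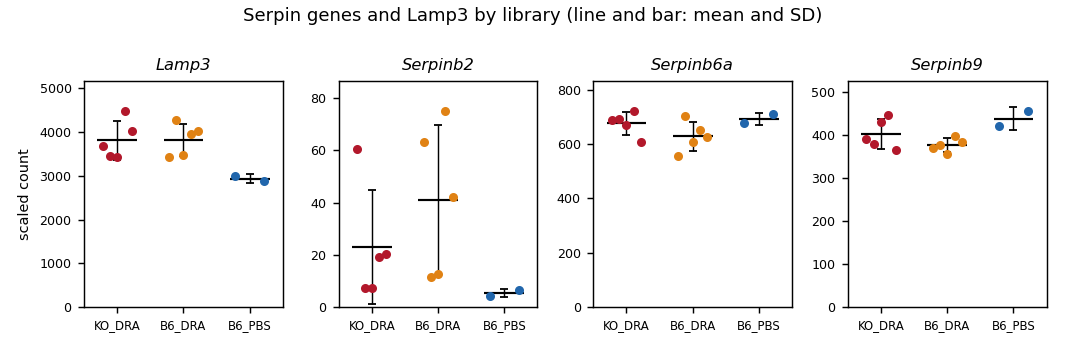
Scaled counts of 3 of the 4 tested serpin genes and Lamp3, a panel each with its own axis from 0, with KO_DRA, B6_DRA and B6_PBS from left to right. Points are libraries, and the line and bar give the mean and SD (n = 5, 5 and 2). For Serpinb2 and Lamp3 all 10 allergen-treated points lie above both B6_PBS points.

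Ranges that did not overlap between B6_DRA and B6_PBS were found for 12 members lower, where 21.5% of all genes tested did so, and for 3 members higher, Tgfb1, Serpinb2 and Lamp3, where 34.7% did so. The 12 are the 11 called members and Lamb3. Within B6_DRA the called members shared an order of libraries. B6_DRA 5 was the highest of the 5 in 9 of the 11 called members and B6_DRA 7 the lowest in 8. Over all 118 genes called lower the same libraries were highest in 88 and lowest in 75, so this order is shared with genes outside the set. Within KO_DRA, KO_DRA 10 was the highest in 8 of the 11 and the library labelled KO_DRA 8 the lowest in 8, against 90 and 88 of the 118 genes.

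Other genes of the same pathways were read from lists. Of 8 further TGF-beta and BMP pathway genes on the panel, 4 fell and 1 rose in B6_DRA relative to B6_PBS. Smad7, a feedback inhibitor of the pathway, was 495 ± 113 in B6_DRA and 873 ± 122 in B6_PBS (scaled counts, SD, n = 5 and 2). Bmp6 fell as well, by 1.01 on the log2 scale. The Id genes on the list did not share a direction: Id1 and Id3 fell by 0.69 and 0.68, while Id2 rose by 0.41. Ctgf, a matricellular gene that TGF-beta induces, was not called (log2 fold change -0.13, SE 0.19, adjusted p = 0.583 by edgeR). Of 17 further growth factor and receptor genes, 7 fell and 2 rose. Kitl, the ligand of KIT, fell by 1.08 and Vegfa by 1.06, whereas Igf1, a growth factor made by macrophages among other cells, rose by 2.19 on the log2 scale.

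Of 13 further matrix and cell-matrix receptor genes, 9 fell and 1 rose in B6_DRA relative to B6_PBS. Hspg2, which encodes perlecan of the basement membrane, fell by 0.96 and the lysyl oxidase gene Loxl2 by 0.99 on the log2 scale. Fn1, of fibronectin, was the gene that rose, with 1034 ± 213 scaled counts in B6_DRA and 590.2 ± 49.6 in B6_PBS (SD, n = 5 and 2; log2 fold change 0.71, adjusted p = 0.0472 by edgeR). Of 5 coagulation and fibrinolysis genes, 3 were tested and 1, the thrombomodulin gene Thbd, fell by 1.03 on the log2 scale. Plau, which encodes urokinase, the target of Serpinb2, was not called (log2 fold change 0.88, SE 0.336, adjusted p = 0.0532 by edgeR). None of the genes on these 4 lists was called in KO_DRA against B6_DRA or against B6_PBS, with no call among the 8, 17, 13 and 3 tested by edgeR.

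Endothelial and epithelial markers fell as the called members did, while macrophage and eosinophil markers rose. The 3 endothelial markers on the panel of 10 listed, Cdh5, Tek and Flt1, all fell in B6_DRA relative to B6_PBS, and summed to 1627 to 3604 scaled counts in KO_DRA, 1568 to 2782 in B6_DRA, and 4023 and 3397 in B6_PBS. The epithelial marker Cdh1 fell by 0.55 on the log2 scale, with 1225 to 1713 in KO_DRA, 1133 to 1388 in B6_DRA, and 1677 and 1699.9 in B6_PBS. Macrophage and monocyte markers rose in 8 of 11, with sums of 3346 to 9148 in KO_DRA, 4553 to 8550 in B6_DRA, and 2635 and 2661 in B6_PBS. Eosinophil markers rose in 4 of 5 tested, with sums of 201 to 1658 in KO_DRA, 711 to 3770 in B6_DRA, and 143 and 143 in B6_PBS. The fibroblast markers on the panel, Col1a2, Col3a1 and Pdgfra, are themselves members, so fibroblast content has no separate measure here. Neutrophil markers had no call among 4 tested, and the part of any of these cell types in the members' differences was not tested.

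No member was called between KO_DRA and B6_DRA. Over all 665 genes edgeR called none either (0%), and neither DESeq2 nor limma called a member. Of all genes, DESeq2 called 0.15% lower and 0% higher, and limma called 0% in each direction. By edgeR, 84 genes and 2 members had an unadjusted p under 0.05. The 2 members were Col17a1 (log2 fold change 0.76, SE 0.293, adjusted p = 0.328) and Col14a1 (-0.36, SE 0.149, adjusted p = 0.35), both by edgeR. Col14a1 was the only member whose ranges in KO_DRA and B6_DRA did not overlap in scaled counts, where 0.602% of all genes tested lay lower and 0.602% higher without overlap. Its log2 fold change was -0.19 without B6_DRA 3 (adjusted p = 0.553 by edgeR) and -0.0030 with library size alone (adjusted p = 0.991 by edgeR). The next smallest p belonged to Col4a1 (0.31, SE 0.154), Col4a2 (0.38, SE 0.195) and Fgf7 (0.36, SE 0.212), with adjusted p of 0.383, 0.383 and 0.443 by edgeR. For Serpinb2 the estimate was -0.86 on the log2 scale (SE 0.64, adjusted p = 0.504 by edgeR).

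Between KO_DRA and B6_DRA the median log2 fold change was 0.13 over the 29 members and 0.01 over all genes tested. Without the library labelled KO_DRA 8, Col17a1 rose in KO_DRA by 0.94 on the log2 scale (SE 0.241, adjusted p = 0.0384 by edgeR) and was the only member called, where 4.52% of all genes were higher and 13.6% lower. Col17a1 lay close to background in B6_DRA, so the size of this rise is not measured with precision. In that fit Pdgfb had a log2 fold change of 0.49 (adjusted p = 0.0568 by edgeR) and Serpinb2 -1.59 (adjusted p = 0.0799 by edgeR). B6_DRA libraries enter this comparison and the allergen comparison with opposite sign, so the directions of the 2 comparisons are not independent.

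KO_DRA and B6_PBS differ in genotype and treatment together. No member was called by edgeR, where 3.01% of all genes were called higher and 0% lower. An unadjusted p under 0.05 by edgeR was found for 7 of the 29 tested members, 6 of them lower. The same held for 190 of all 665 genes tested, 51 lower and 139 higher. DESeq2 and limma called no member. Of all genes, DESeq2 called 8.27% higher and 0.15% lower, and limma called 4.21% higher and 0% lower. The smallest p belonged to Col12a1 (log2 fold change -1.39, SE 0.504) and Vegfc (-0.72, SE 0.272), both with an adjusted p of 0.137 by edgeR. Fgf18 (-0.64, SE 0.262, adjusted p = 0.155), Tgfbr3 (-0.64, SE 0.275, adjusted p = 0.165) and Fgf7 (-0.62, SE 0.266, adjusted p = 0.165) followed by edgeR. Ranges lay lower without overlap for 7 members, Fgf7, Fgf18, Pdgfa, Pdgfb, Vegfc, Col12a1 and Col14a1, where 8.57% of all genes did so. Serpinb2 and Lamp3 lay higher without overlap, where 26.9% of all genes did so. Without KO_DRA 10, Pdgfra was called lower in KO_DRA than in B6_PBS, the only call among members when a library was left out. In that fit 1.66% of all genes were lower and 10.3% higher.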

How the data were processed

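Lung RNA of 12 mice, from the post-caudal lobe, was counted on a NanoString panel. The panel held 734 endogenous, 20 housekeeping, 8 negative and 6 positive control probes. The authors deposited raw counts per probe. They also deposited a scaled signal, which equals the counts times 1 factor per library. R 4.2.0, limma and edgeR appear in the submitters' processing notes, with no role stated, and the sources used here do not state how the counts were exported. Housekeeping probes were recognised by their place in the table, and groups came from the sample titles.

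Endogenous and housekeeping counts were filtered with filterByExpr (minimum count 10, minimum total 15), scaled by TMM and fitted with edgeR 4.0.16 (R 4.3.3) as 1 quasi-likelihood model over 12 libraries, with Benjamini-Hochberg adjustment over the 665 endogenous genes tested. Standard errors divide the absolute log2 fold change by the square root of F. DESeq2 1.42.0 and limma 3.58.1 on log2(scaled signal + 1) were alternatives. The procedure was tested on simulated data. All 34 members matched a RefSeq symbol, and 1 tested member is counted among them but not reported here. The members and gene lists were chosen with earlier results of these data known. Values per library are given for called members, for the 5 smallest p per comparison and for the highest and lowest member of a role, and folds for the first 2 kinds. Values per library of Fgf10, Tgfb1, Pdgfrb, Lamb3 and Serpinb2, other fold changes and intervals, and the pathway genes named, were chosen after their values were seen. No 2 libraries of 1 group agreed within sampling noise (chi-square per degree of freedom at least 5.28). Whether assays were run separately for each mouse is not stated, so the spread behind a p-value may be partly technical. No batch is labelled.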

Additional observations from a re-analysis of the deposited data

Results flagged for a closer look

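Among 58 sets of 5 libraries (29 tested members in KO_DRA and in B6_DRA), 5 held a library far from the other 4, where chance gives about 1 in 20. The library labelled KO_DRA 8 had 60.5 scaled counts of Serpinb2, with 7.18 to 20.5 in the other KO_DRA libraries. B6_DRA 5 had 91.5 scaled counts of Fgf18, with 63.1 to 69.1 in the other B6_DRA libraries. It also had 112 of Fgfr1, with 64.5 to 76.5 in the others. B6_DRA 3 had 176 scaled counts of Col14a1, with 104 to 122 in the other B6_DRA libraries. It also had 81.0 of Col15a1, with 47.7 to 53.2 in the others.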

How the results depend on the processing

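In B6_DRA against B6_PBS the 11 members called lower became 7 with the authors' housekeeping factors in edgeR, 6 with limma on scaled signals and 18 with library size alone, and 0 to 17 when a library was left out. None was higher in the model reported, and 1, Serpinb2, was higher with library size alone, with library size without Chil3, Chil4 and Retnla, with the DESeq2 test and with only these 2 groups in the fit, or 0 to 1 when a library was left out. In KO_DRA against B6_DRA the members called higher were 0 to 1 when a library was left out, and in KO_DRA against B6_PBS those called lower were 0 to 1. The share of all genes called lower in B6_DRA against B6_PBS moved too. It was 17.7% in the model reported, 9.77% with the authors' housekeeping factors, 9.17% with limma and 33.4% with library size alone. When a B6_DRA library was left out it was 5.41% to 24.2%. The cause of these moves, in members or in all genes, was not tested. Fits that leave a library out also hold fewer libraries, and a lone B6_PBS library is assumed there to vary like the other groups. Of the 24 member fold changes followed through the alternatives run, 0 changed sign, but that of Col14a1 in KO_DRA against B6_DRA, -0.36 in the model reported, ranged from -0.42 to -0.0030, the last with library size alone. No paired analysis was run, because the labels used here match no mouse to a mouse of another group. The B6_DRA mice are described as littermates of KO_DRA, and any pairing by litter was left out of account. Near background, differences of Serpinb2, Col17a1, Bmp8a, Col10a1, Col11a1, Serpinb7 and Serpine3 are not measurable with precision.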
